A study of Mus musculus with 13 samples.

Results

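Tau, the structural microtubule-associated proteins (MAPs) and the microtubule genes of immature neurons were followed through postnatal cerebellar development, with and without the RNA-binding protein Sam68. The 10 genes were taken by symbol: Mapt, Map2, Map4, Map1a, Map1b, Dcx, Dclk1, Tubb3, Stmn1 and Stmn2. The deposited tables list the 4 Map genes under their older Mtap symbols. All 10 were found among the 21553 genes with an expression value, and 147 of the 253155 splicing entries used here belong to them. The RNA came from whole cerebella of C57BL/6 mice. The groups were Sam68 knockout (KO) at postnatal day 1 (P1, 3 libraries) and P10 (3 libraries), and wild type (WT) at P1 (2 libraries), P10 (2 libraries) and P30 (3 libraries). There was no knockout group at P30. Sam68 is the product of Khdrbs1 and binds U- and A-rich RNA to regulate splicing; the labels describe the mutant as Sam68 ko and give no further allele. The labels do not say whether a library is 1 animal or a pool, so p-values measure the spread between these libraries, which may be technical in part.

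Microtubules are polymers of alpha- and beta-tubulin that set the shape of axons and dendrites. Tau (Mapt) lines axonal microtubules, MAP2 is its relative in dendrites and cell bodies, MAP4 is the relative in most other cells, and MAP1A and MAP1B are larger scaffolds. Doublecortin (Dcx) and its kinase relative (Dclk1) stabilise microtubules in migrating and growing neurons. Tubb3 is the neuron-enriched beta-tubulin, and the stathmins Stmn1 and Stmn2 bind free tubulin dimers and favour disassembly in growth cones and dividing cells. In the cerebellum, granule cell precursors divide, migrate and extend parallel fibres over the first weeks after birth. Tau, MAP2 and MAP4 pre-mRNAs share an alternative exon that encodes an additional microtubule-binding repeat.

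That repeat exon is 93 nt long and coding in all 3 genes. The sequences are from GENCODE on build GRCm38, all on the plus strand. They were matched to the entries of the deposited table, which uses mm9, by gene, exon length and the lengths of both flanking introns. The Map2 and Map4 exons are shown because they are homologous, while the first was mostly skipped and the second mostly included at every age. Capitals mark the 59 positions at which both carry the same base.
Map2 repeat exon, chr1:66431527-66431619: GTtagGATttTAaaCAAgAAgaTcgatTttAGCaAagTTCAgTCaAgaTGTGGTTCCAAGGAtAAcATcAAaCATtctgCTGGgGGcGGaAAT
Map4 repeat exon, chr9:110072613-110072705: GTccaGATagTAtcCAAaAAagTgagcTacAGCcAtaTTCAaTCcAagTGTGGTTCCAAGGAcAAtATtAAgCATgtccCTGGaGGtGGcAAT
Without gaps, the Map2 and Map4 exons shared 63.4% of their bases. The length is a multiple of 3, so inclusion leaves the reading frame as it is.

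Junction reads over simple exon entries ranged between 7.83 and 13.66 M per library. Between 10520 and 14976 genes were listed above 0. KO P1 library 15 was the lowest and stood apart in this respect, and values without it are given where they matter. Khdrbs1 stood at 4.22 to 8.50 cRPKM in KO and at 56.5 and 74.4 cRPKM in WT at P1. At P10 it stood at 1.28 to 3.59 cRPKM in KO and at 56.2 and 61.2 cRPKM in WT, so every KO library was below every WT library. The cRPKM unit sets reads against library size and the part of each transcript that can be mapped, so levels of different genes can be compared. Markers of cerebellar cell types were detected, and the only listed marker at 0 in all libraries was the caudal hindbrain gene Hoxa3.

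Between P1 and P30 in WT cerebellum, 7 of the 10 genes fell, Map1a rose, and Map4 and Dclk1 did not pass the test. The fall was 80.6-fold for Dcx, 7.99-fold for Stmn1, 7.38-fold for Tubb3, 4.5-fold for Map1b, 3.96-fold for Mapt, 2.68-fold for Map2 and 1.96-fold for Stmn2. Map1a rose 1.86-fold. The fold changes are on the log2(cRPKM + 1) scale and were tested with limma, and a gene was called at a Benjamini-Hochberg adjusted p below 0.05 over 14063 genes. Of all tested genes, 25.4% were called between these ages, against 8 of the 10 here. The median log2 fold change was -1.71 over the 10 genes and -0.13 over all genes tested. Rescaling the libraries to a common median brought that -0.13 to 0.00 and raised the share of higher genes among all calls to 47.9%, against 38.0%. The same 8 calls came out in the same direction, with Map1a at 1.05 and the falls between -0.80 (Stmn2) and -6.23 (Dcx).

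**Figure D1:**
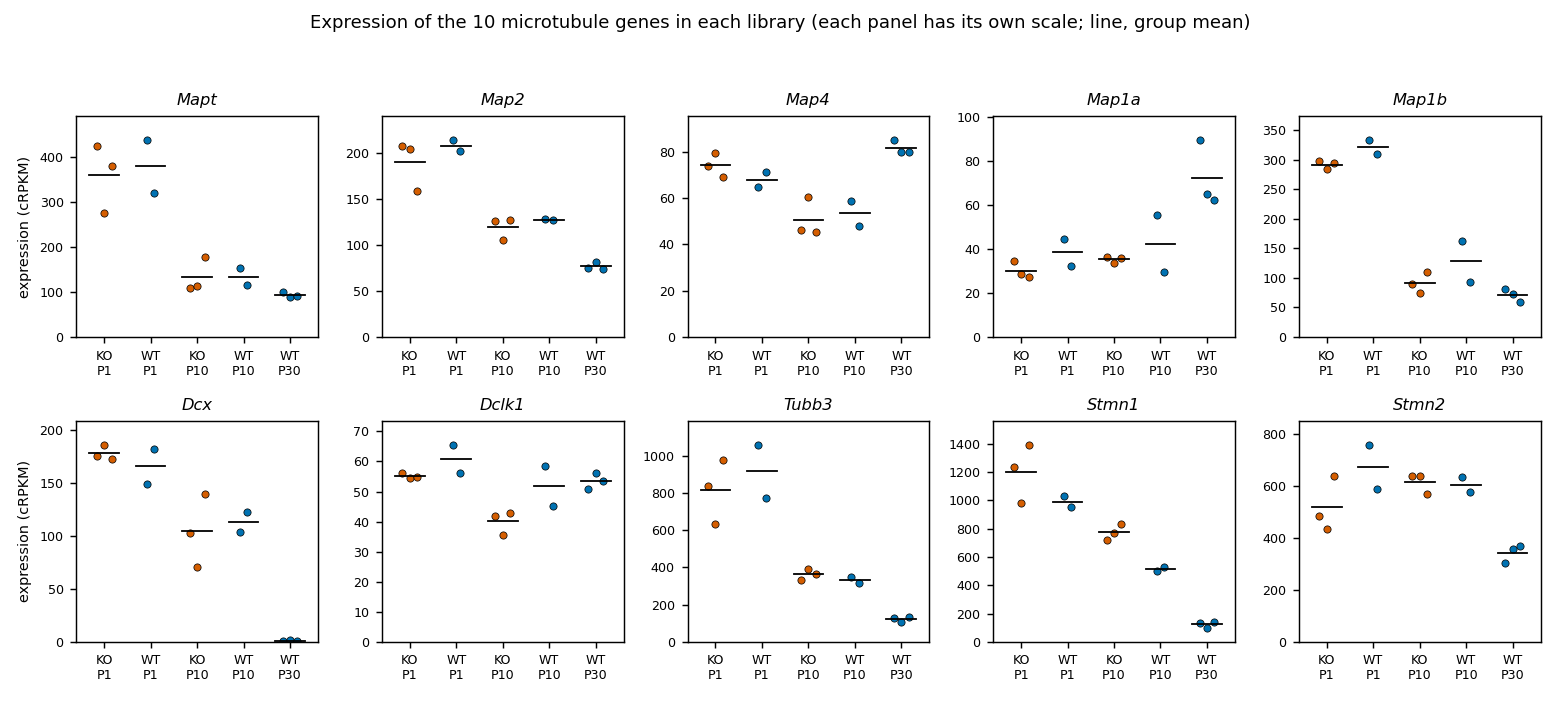
Expression in cRPKM (vertical axis, from 0, a separate scale in each panel) of the 10 genes in each of the 13 libraries. Points are libraries, orange for KO and blue for WT, and lines are group means. Dcx stood at 1.83 cRPKM or below in the P30 libraries and at 71.0 or above in all others, whereas Map1a was highest at P30.

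Doublecortin, a microtubule stabiliser of migrating neurons, gave the widest range. Dcx had 176, 186 and 172 cRPKM in KO at P1 and 103, 71.0 and 139 in KO at P10. The WT libraries had 149 and 182 cRPKM at P1, 103 and 122 at P10, and 0.60, 1.83 and 0.92 at P30. The P30 libraries lay far below all others, and the P1 and P10 libraries of WT did not overlap. Of all genes tested, 48.3% did not overlap between P10 and P1 in WT and 24.7% in KO. That share was 55.1% between P30 and P10 and 65% between P30 and P1. Dcx fell by 6.33 on the log2 scale at P30 relative to P1 (SE 0.27, limma adjusted p = 4.68e-08) and by 5.78 relative to P10 (SE 0.27, adjusted p = 2.71e-07). The step between P10 and P1 was -0.55 in WT (SE 0.30, adjusted p = 0.415) and -0.82 in KO (SE 0.25, adjusted p = 0.0549), and neither passed; the KO step did without library 12 (-1.05, adjusted p = 0.0211). Because 1 is added before the logarithm, a level near 1 cRPKM understates the fold.

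Stathmin 1, found in dividing precursors and young neurons, had the highest mean level of the 10 genes at P1 in both genotypes. Stmn1 had 1235, 979 and 1395 cRPKM in KO at P1 and 723, 769.9 and 835 in KO at P10. Wild type gave 1029 and 950.2 cRPKM at P1, 502 and 529 at P10, and 133, 99.4 and 140.3 at P30. The 3 WT ages were fully separated. Relative to P10, Stmn1 fell by 2.06 on the log2 scale at P30 (SE 0.18, limma adjusted p = 1.84e-05), and P10 fell by 0.94 relative to P1 (SE 0.20, adjusted p = 0.0205). The first of these drops held whichever library was left out, and the second did not pass when any 1 of its 4 libraries was left out (adjusted p 0.0684 to 0.163). In KO the step at P10 relative to P1 was a fall by 0.62 (SE 0.16, adjusted p = 0.0326), which did not pass without library 13, 15, 10 or 11 (adjusted p 0.0766 to 0.105).

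Stathmin 2, the neuron-specific relative found in growth cones, followed a later course. Stmn2 had 483, 433 and 636 cRPKM in KO at P1 and 638, 637 and 569 in KO at P10. In WT it had 759 and 589.5 cRPKM at P1, 634 and 577 at P10, and 303, 357 and 369 at P30. P1 and P10 overlapped in both genotypes, and P30 lay below both. The difference between P10 and P1 was -0.15 in WT (SE 0.20, limma adjusted p = 0.816), while P30 fell by 0.82 relative to P10 (SE 0.18, adjusted p = 0.00924). Leaving out WT P10 library 5 gave an adjusted p of 0.0763 for that last step. At P30, Stmn2 had the highest mean level of the 10 genes.

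The neuronal tubulin Tubb3 fell at each step. Tubb3 had 838, 632 and 979.8 cRPKM in KO at P1 and 330.3, 392 and 367 in KO at P10. The WT libraries had 1060.4 and 772 cRPKM at P1, 347 and 314 at P10, and 126, 106 and 134 at P30. No 2 ages overlapped in either genotype. At P10 it fell by 1.45 on the log2 scale relative to P1 in WT (SE 0.22, limma adjusted p = 0.00282) and by 1.15 in KO (SE 0.18, adjusted p = 0.00202). At P30 it fell by 1.43 relative to P10 (SE 0.20, adjusted p = 0.000497). All 3 steps kept their call without any single library.

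Tau itself fell between P1 and P10. Mapt had 426, 277 and 382 cRPKM in KO at P1 and 109.9, 113 and 179 in KO at P10. Wild type gave 439 and 321 cRPKM at P1, 153 and 117 at P10, and 100.5, 89.8 and 92.2 at P30. P10 lay below P1 in both genotypes, by 1.44 on the log2 scale in KO (SE 0.22, limma adjusted p = 0.00179) and by 1.49 in WT (SE 0.27, adjusted p = 0.00802). Without WT P1 library 8 or WT P10 library 6 the WT value had an adjusted p of 0.114 or 0.0686. The P30 libraries lay below both P10 libraries, but that step of -0.50 did not pass (SE 0.24, adjusted p = 0.211). It did pass with only the compared groups fitted (adjusted p = 0.0463), with junction reads of simple exon entries (-0.62, adjusted p = 0.00368) and with exon-exon reads of introns (-0.54, adjusted p = 0.00827).

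MAP1B, the scaffold of growing axons, followed tau closely. Map1b had 297, 283 and 294 cRPKM in KO at P1 and 89.0, 74.7 and 109.9 in KO at P10. In WT it had 333 and 309 cRPKM at P1, 163 and 93.1 at P10, and 80.6, 73.3 and 59.4 at P30. At P10 it fell by 1.68 relative to P1 on the log2 scale in KO (SE 0.20, limma adjusted p = 0.000409) and by 1.38 in WT (SE 0.25, adjusted p = 0.00802). The WT step had an adjusted p of 0.0853 without P1 library 8 and 0.0532 without P10 library 6. The later step of -0.79 at P30 relative to P10 passed narrowly (SE 0.23, adjusted p = 0.0337) and was lost without WT P10 library 5 (-0.40, adjusted p = 0.351) or without any 1 of the P30 libraries (adjusted p 0.05 to 0.120). The WT P10 pair was spread widely, with library 5 above library 6 also in Mapt, Map1a, Map4 and Dclk1.

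Map1a, the scaffold of mature neurons and partner of Map1b in the textbook account of MAP1 switching, moved the other way. Map1a had 34.6, 28.6 and 27.1 cRPKM in KO at P1 and 36.4, 33.5 and 36.1 in KO at P10. The WT libraries had 44.5 and 32.4 cRPKM at P1, 55.2 and 29.4 at P10, and 89.6, 65 and 62.4 at P30. All P30 libraries lay above all earlier ones. It rose by 0.89 on the log2 scale at P30 relative to P1 (SE 0.26, limma adjusted p = 0.0223), with adjusted p values of 0.214 without WT P1 library 9 and 0.088 without WT P30 library 1. It also did not pass with junction reads of simple exon entries (0.47, adjusted p = 0.128) or without the filter on low values (0.89, adjusted p = 0.0541). Map1a averaged 72.3 ± 15 and Map1b 71.1 ± 10.8 cRPKM at P30 (SD, n = 3), against 38.4 ± 8.63 and 321 ± 17.4 cRPKM at P1 (SD, n = 2).

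MAP2, the dendritic relative of tau, fell in even steps. Map2 had 208, 204 and 159 cRPKM in KO at P1 and 126, 106 and 128 in KO at P10. Wild type gave 214 and 202 cRPKM at P1, 128 and 127 at P10, and 75.0, 82.0 and 73.8 at P30. The ages did not overlap in either genotype. P10 fell by 0.66 relative to P1 in KO (SE 0.13, limma adjusted p = 0.00828) and by 0.70 in WT (SE 0.16, adjusted p = 0.0298). P30 fell by 0.72 relative to P10 (SE 0.15, adjusted p = 0.00574). The WT step between P1 and P10 was lost without any 1 of its 4 libraries (adjusted p 0.0741 to 0.184).

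MAP4 and DCLK1 had the smallest fold changes between P1 and P30. Map4 had 73.8, 79.4 and 69.2 cRPKM in KO at P1 and 46.0, 60.6 and 45.5 in KO at P10. In WT it had 64.7 and 71.2 cRPKM at P1, 58.9 and 48.1 at P10, and 85.2, 79.8 and 80.0 at P30. Its lowest age in WT was P10, though the step from P1 did not pass (-0.35, SE 0.17, limma adjusted p = 0.362). In KO, which has no P30 group, P10 lay below P1. Map4 rose by 0.61 on the log2 scale at P30 relative to P10 (SE 0.16, limma adjusted p = 0.0224), and fell by 0.55 at P10 relative to P1 in KO (SE 0.14, adjusted p = 0.0295). The first was lost without WT P10 library 6 or any 1 P30 library (adjusted p 0.0550 to 0.162), and the second without 1 of 4 of the 6 KO libraries (13, 14, 10 and 12, adjusted p 0.0619 to 0.103). Dclk1 had 56, 54.5 and 54.9 cRPKM in KO at P1 and 41.7, 35.7 and 42.9 in KO at P10. The WT libraries had 65.6 and 56.2 cRPKM at P1, 58.6 and 45.1 at P10, and 50.8, 56 and 53.4 at P30. The WT ages overlapped or nearly so, and no Dclk1 comparison passed; the nearest was KO P10 against P1 (-0.45, SE 0.14, adjusted p = 0.0549). Counted from exon-exon reads of its introns, Dclk1 did pass, at -0.62 for P30 relative to P1 in WT (adjusted p = 0.00207) and -0.64 for P10 relative to P1 in KO (adjusted p = 0.00177). Counted from the junction reads of its simple exon entries, the first of these had the other sign (0.37) and neither passed.

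By comparison, 5 of the 10 genes fell and none rose at P10 relative to P1 in WT (Mapt, Map2, Map1b, Tubb3 and Stmn1), where 4.05% of all genes were called. That count was 1 to 3 when any 1 of the 4 libraries was left out, and 1 without P1 library 8 or P10 library 6. In KO the same step called 6 genes, all lower (those 5 and Map4), beside 10.2% of all genes, and 5 of them without library 15. At P30 relative to P10, 6 genes fell and Map4 rose, beside 14.7% of all genes. After rescaling to a common median the last comparison had 51.3% higher among all calls, against 34.0% before, Map1a rose (1.01, adjusted p = 0.0222) and Map1b did not pass (-0.59, adjusted p = 0.123). The medians over the 10 genes were -0.62, -0.64 and -0.76 on the log2 scale in these 3 comparisons, against 0.01, 0.04 and -0.13 over all genes. In bulk tissue, fewer cells of a type and less RNA per cell cannot be told apart. The summed level of 10 granule cell precursor and proliferation markers, all detected, was 254 to 518 cRPKM in the P1 and P10 libraries and 65.2 to 72.5 at P30. The 9 mature granule cell markers summed to 269 to 459 cRPKM at P1, 650 to 1050 at P10 and 3420 to 3630 at P30. The 10 oligodendrocyte markers summed to 93.9 to 177 cRPKM at P1, 1570 to 2940 at P10 and 3840 to 4790 at P30. The part of these shifts in the changes of the 10 genes was not tested.

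**Figure D2:**
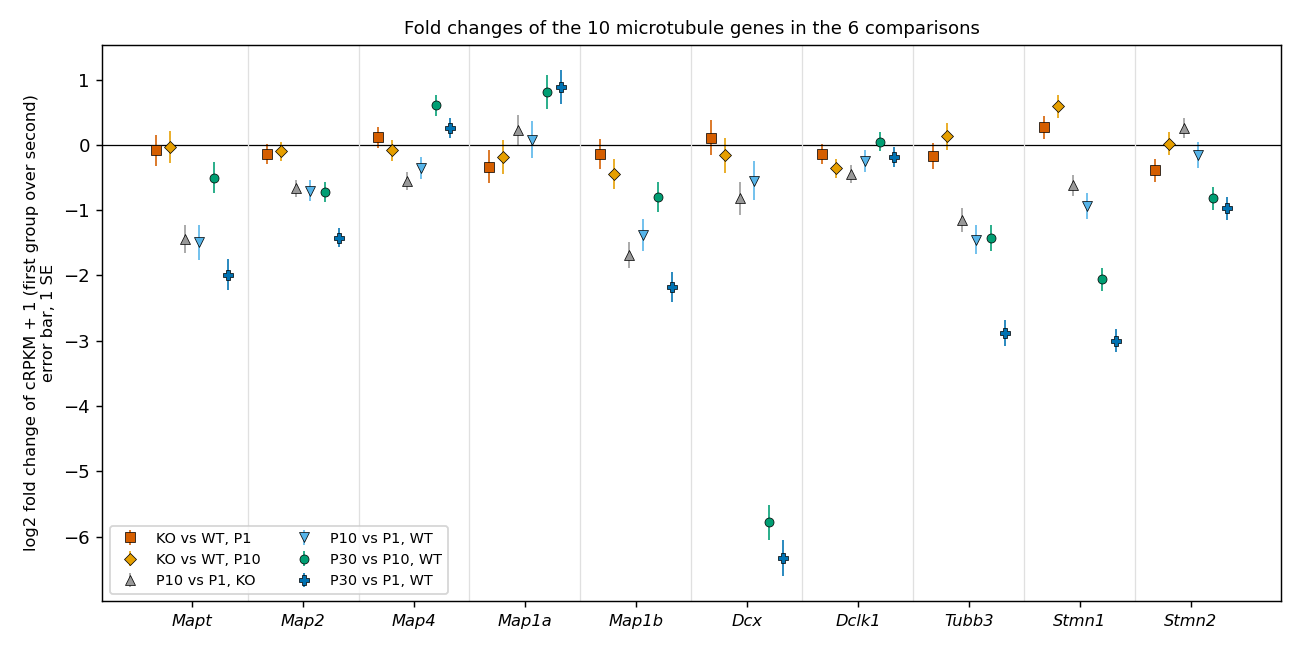
Log2 fold change of cRPKM + 1 (vertical axis) of each of the 10 genes in 6 comparisons, with bars of 1 SE from the limma fit. The knockout comparisons lie near 0 for most genes, with Stmn1 at P10 farthest above it (0.59), and P30 against P1 ranges from -6.33 (Dcx) to 0.89 (Map1a).

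With Sam68 lost, limma called none of the 10 genes at either age, and 0 of them at P1 and 2 at P10 had an unadjusted p below 0.05. Of all 14063 genes tested, 953 at P1 and 748 at P10 had an unadjusted p below 0.05. At P1, 5 of 14063 genes (0.0356%) were called between KO and WT, and at P10 only 1 gene, or 0.00711%. The call at P10 was Khdrbs1, which fell by 4.23 on the log2 scale (SE 0.31, limma adjusted p = 0.000192), after a fall by 3.27 at P1 (SE 0.31, adjusted p = 0.00112). The difference between the effects at P10 and at P1, tested as an interaction, called 0.0142% of genes and none of the 10. Groups did not overlap for 2 of the 10 genes at P1 (Map1b and Dclk1, both lower in KO) and for 2 at P10 (Stmn1 higher and Dclk1 lower in KO), against 18.5% and 19.0% of all genes tested.

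The gene nearest to a knockout difference was Stmn1 at P10, at 776 ± 56.2 cRPKM in KO (SD, n = 3) and 516 ± 18.7 cRPKM in WT (SD, n = 2). The log2 difference was 0.59 (95% interval 0.19 to 0.98, unadjusted p = 0.00734, limma adjusted p = 0.884). At P1 the KO and WT libraries overlapped, with a difference of 0.27 (interval -0.13 to 0.66). Counted from the junction reads of its single simple exon entry, the sign of both differences was the other one (-1.53 at P10 and -1.74 at P1, neither passing). Dclk1 at P10 was lower in KO by 0.36 (interval -0.69 to -0.02, adjusted p = 0.884). For Mapt the intervals ran from -0.61 to 0.45 at P1 and from -0.56 to 0.50 at P10. For Dcx they were -0.49 to 0.71 and -0.76 to 0.44, and for Tubb3 -0.60 to 0.26 and -0.30 to 0.57. Changes within these intervals remain compatible with the libraries. The intervals are not detection limits, because calls were made after adjustment over all genes tested. Stmn1 at P10, with an interval of 0.19 to 0.98, was still not called. Beside these comparisons, the granule cell precursor markers summed to 309 to 432 cRPKM in KO and to 369 and 424 in WT at P10. The 12 midbrain and caudal hindbrain markers summed to 14 to 26.6 cRPKM in KO and to 28.7 and 43.5 in WT at P1, with Hoxa3 at 0. Other marker sums also separated the genotypes. At P1, the 9 mature granule cell markers summed to 269 to 335 cRPKM in KO and to 356 and 459 in WT, and the 10 oligodendrocyte markers to 93.9 to 115 in KO and to 149 and 177 in WT. At P10, the 7 inhibitory interneuron markers summed to 128 to 162 cRPKM in KO and to 172 and 214 in WT, and the 6 microglia markers to 88.8 to 96.4 in KO and to 68.8 and 81.7 in WT. The 5 choroid plexus markers summed to 281 to 661 cRPKM in KO and to 2.27 and 280 in WT at P10. The part of any of these in the differences was not tested.

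Exon inclusion changed with age in 4 of the 10 genes: Mapt, Map2, Map4 and Dclk1. Inclusion is given as PSI, the percentage of informative junction reads that include the exon, intron or longer splice site. An entry was called when the limma fit on the log2 odds gave an adjusted p below 0.05 over all tested entries and the mean PSI differed by at least 10 points. Of the 147 entries of the 10 genes (42 exons, 26 splice sites and 79 introns), 42 had enough reads and a mid-range PSI in some comparison, and Map1b, Tubb3 and Stmn2 had none. At P30 relative to P1 in WT, 8 of 36 tested entries rose and 4 fell, or 33.3%, beside 10% of all tested entries. At P30 relative to P10, 6 of 37 rose and 2 fell, beside 2.97%, and at P10 relative to P1 only Mapt exon 10 of 41 was called, beside 0.676%. In KO at P10 relative to P1, 2 of 41 rose and 1 fell, beside 0.867%. Entries of 1 gene can share reads, so these are not independent counts.

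Mapt exon 10 was skipped in most transcripts at P1 and included in nearly all at P30. Its PSI was 4.6, 8.2 and 7.5 in KO at P1 and 44.4, 38.6 and 32.1 in KO at P10. In WT it was 4.5 and 6.8 at P1, 43.6 and 30.7 at P10, and 98.5, 98.6 and 99.1 at P30, from 1110 to 3495 reads per library. The ages did not overlap, and KO and WT overlapped at P1 and at P10. Inclusion rose by 93.1 points at P30 relative to P1 (limma adjusted p = 6.72e-09), by 61.6 at P30 relative to P10 (adjusted p = 8.57e-07), by 31.5 at P10 relative to P1 in WT (adjusted p = 0.00101) and by 31.6 in KO (adjusted p = 0.000189). KO and WT differed by 1.1 points at P1 and 1.2 points at P10, with an adjusted p of 1 at both. These calls held under each alternative tried and without any single library.

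Multiplying the cRPKM of Mapt by the inclusion of exon 10 splits the gene into 2 forms that moved in opposite directions. The form with exon 10 averaged 20.7 ± 1.51 cRPKM at P1, 51.2 ± 21.7 at P10 and 93 ± 5.41 at P30 in WT (SD, n = 2, 2 and 3). The form without it averaged 360 ± 84.9, 83.5 ± 3.67 and 1.21 ± 0.344 cRPKM at the same ages. The first was 4.49-fold higher and the second 298-fold lower at P30 than at P1. In KO the form with exon 10 averaged 23.6 ± 4.61 cRPKM at P1 and 50 ± 6.99 at P10, and the form without it averaged 338 ± 77.5 and 84.0 ± 32.7 (SD, n = 3). The product assumes that skipping is uniform along the transcript and was not tested.

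**Figure D3:**
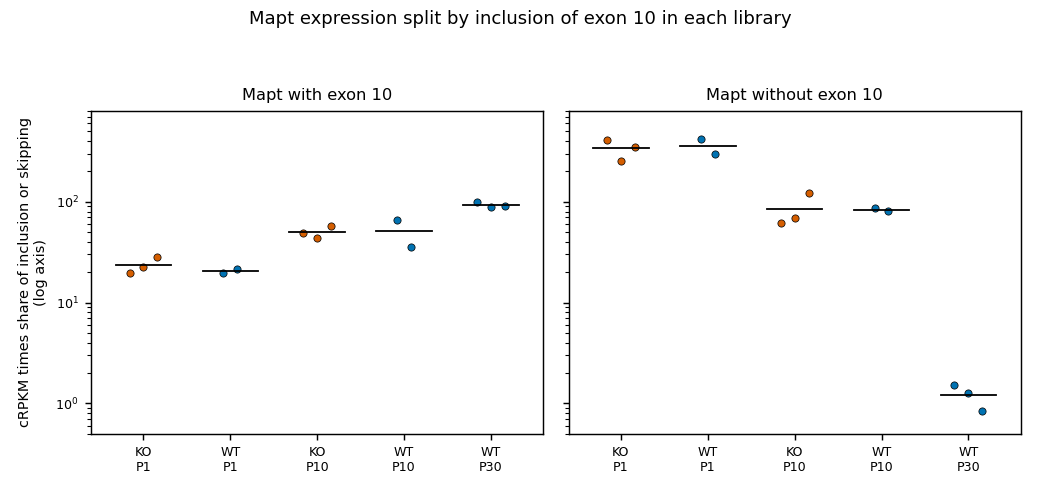
Mapt expression (cRPKM, log axis) multiplied by the share of transcripts that include (left) or skip (right) exon 10, in each library. Points are libraries and lines are group means. The form without exon 10 drops to 1.21 cRPKM at P30 in WT, against 360 at P1, while the form with it reaches 93, against 20.7.

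The alternative exons near the 5′ end of Mapt, exons 2 and 3, encode the N-terminal inserts of tau. Both are coding, 87 nt long and on chromosome 11, and they are printed because, unlike exon 10, they were still mostly skipped at P30.
Mapt exon 2, GRCm38 chr11:104287123-104287209: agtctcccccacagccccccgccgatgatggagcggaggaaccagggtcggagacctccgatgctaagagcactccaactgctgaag
Mapt exon 3, GRCm38 chr11:104289908-104289994: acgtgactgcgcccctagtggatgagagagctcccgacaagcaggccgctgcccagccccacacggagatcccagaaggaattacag
The match of exon 3 rests on its length and 1 flanking intron. Exon 2 had a PSI of 0.1, 0.3 and 0.1 in KO at P1 and 4.6, 4.6 and 3.3 in KO at P10. Wild type gave 0.1 and 0.1 at P1, 3.7 and 3.4 at P10, and 20.3, 20 and 20.1 at P30. It rose by 20.1 points at P30 relative to P1 (limma adjusted p = 3.23e-07) and by 16.6 relative to P10 (adjusted p = 0.00448, or 0.0606 without WT P10 library 6). The smaller step at P10 relative to P1, of 3.5 points in WT and 4.0 in KO, had limma adjusted p values of 0.000167 and 1.64e-05. It was not called because it stayed below the 10-point minimum.

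Exon 3 averaged 3.9% over all libraries and so was outside the main test. It was included in 0.1% of transcripts in every P1 library of both genotypes, in 2.6, 2.3 and 1.8% in KO at P10, and in WT in 2.3 and 1.8% at P10 and in 13.1, 13.5 and 13.4% at P30. With entries of mean PSI 1 to 99 admitted, its rise of 13.2 points at P30 relative to P1 was called (limma adjusted p = 8.22e-08). At P10 and P30 exon 3 stood below exon 2 in every library. A 711-nt coding exon between them and the repeat exons (mm9 chr11:104159860-104160570) stood at 0.0 to 0.3% up to P10 and at 7.5, 6.8 and 6.1% at P30. In the same wider range its rise of 6.7 points at P30 relative to P1 had a limma adjusted p of 5.77e-08, but was below the 10-point minimum. These exon 3 and 711-nt values were chosen after they were seen. The 66-nt exon beside them stood at 98.1% or above in every library.

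The repeat exon of Map2 (mm9 chr1:66478101-66478193) stayed mostly skipped. Its PSI was 5.9, 9.9 and 4.9 in KO at P1 and 13.8, 12.1 and 13.6 in KO at P10, against 3.5 and 7.2 at P1 and 10.8 and 10.2 at P10 in WT. At P30 it stood at 12.2, 12.9 and 13.2 in WT. P30 exceeded P1 by 7.4 points, with an adjusted p of 0.0114 in limma, but short of 10 points. The downstream intron (1894 nt) was read as retained at 12.5, 39.8 and 24.5% at P30, against 63.6 and 55.1% at P1 in WT, and the upstream intron (5998 nt) at 20.3, 22.8 and 20% at P30, against 54.7 and 48.6% at P1. The groups did not overlap, and retention fell by 33.7 points (adjusted p = 0.0313) and by 30.7 points (adjusted p = 0.0477). Low junction reads limit both entries. Both calls were lost with mean PSI 1 to 99 admitted (limma adjusted p = 0.0661 downstream and 0.0947 upstream). The downstream call was also lost with only the compared groups fitted (0.0534), and the upstream one with PSI on its own scale (0.0566). Leaving out any 1 of the 5 libraries lost the upstream call (adjusted p 0.0828 to 0.241), and leaving out any but WT P30 library 2 lost the downstream one (0.0742 to 0.202).

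The repeat exon of Map4 (mm9 chr9:109975117-109975209) was instead mostly included at every age. It had a PSI of 75.4, 72 and 71.4 in KO at P1 and 76.4, 73.4 and 75 in KO at P10. In WT it had 80.9 and 75.5 at P1, 78.8 and 72.5 at P10, and 86.0, 86.9 and 80.9 at P30. No comparison passed, the nearest being 8.9 points higher at P30 than at P10 (limma adjusted p = 0.119). At P1 the 3 homologous exons thus averaged 5.6% in Mapt, 5.3% in Map2 and 78.2% in Map4, and at P30 they averaged 98.7%, 12.8% and 84.6%, all in WT. The difference between the genes was not tested.

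**Figure D4:**
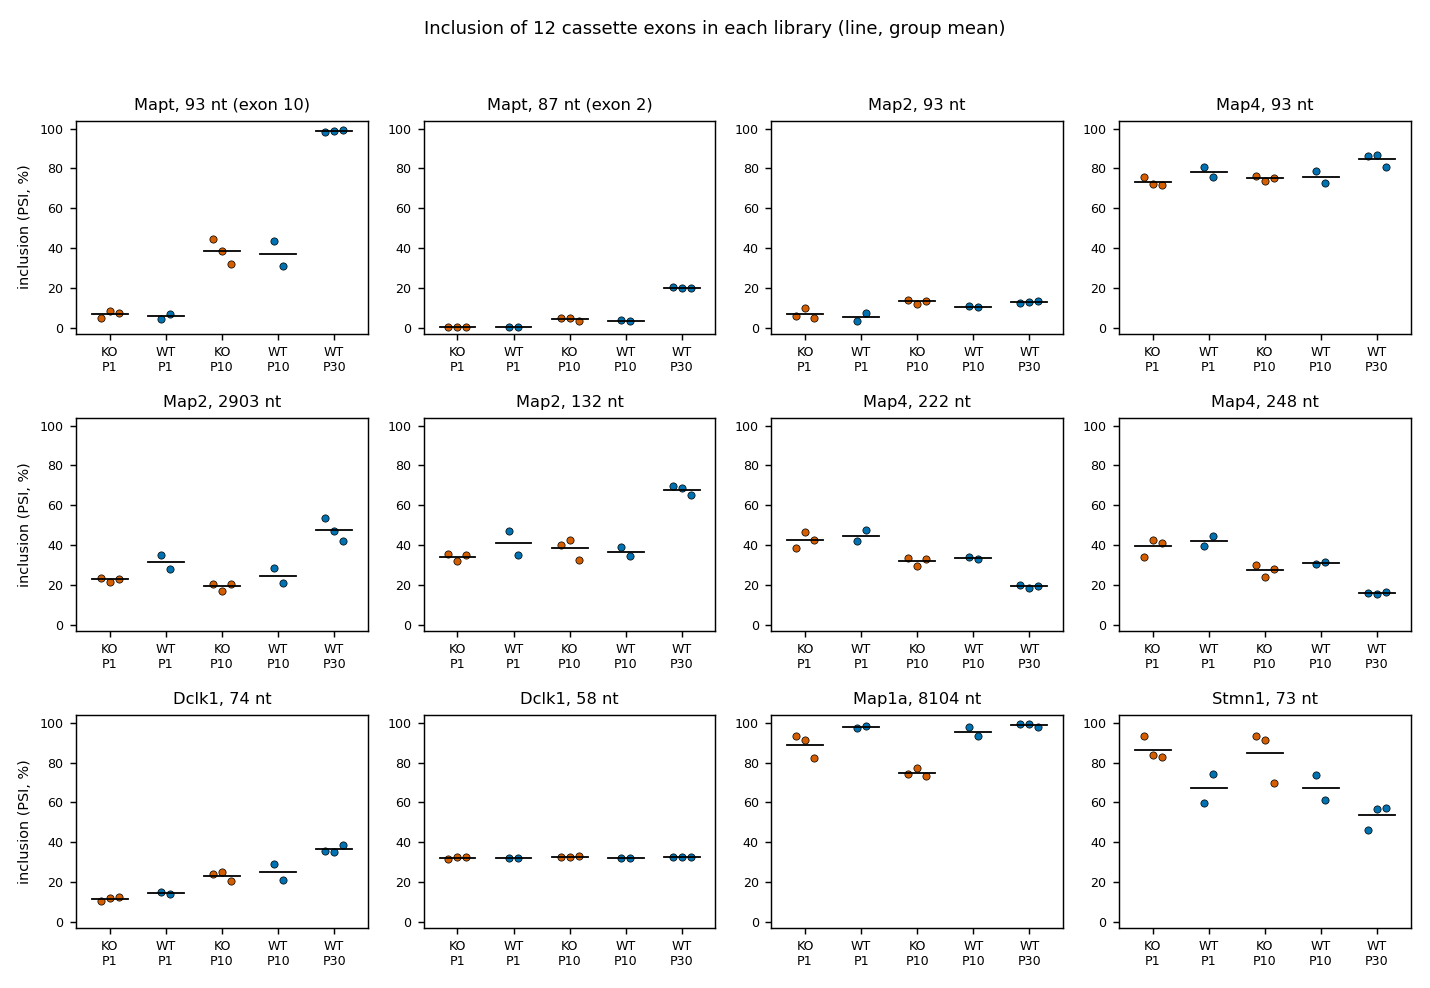
Inclusion in PSI (vertical axis, percent) of 12 cassette exons of Mapt, Map2, Map4, Dclk1, Map1a and Stmn1 in each library. Points are libraries, orange for KO and blue for WT, and lines are group means. Mapt exon 10 moves across nearly the whole range, and Map4 exons of 222 and 248 nt decline with age. The Map1a exon stands at 73.1 to 77.3 in KO and at 93.3 and 97.7 in WT at P10, a difference that was not called (limma adjusted p = 0.204).

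Further 5′ in Map2, 3 neighbouring exons of 2903, 150 and 132 nt rose together after P10. They found no match by length and flanking introns in the GENCODE annotation, and no sequence is shown. The 2903-nt exon (mm9 chr1:66458981-66461883) had a PSI of 23.6, 21.6 and 23.2 in KO at P1 and 20.2, 17.1 and 20.3 in KO at P10. The WT libraries had 34.9 and 28.2 at P1, 28.3 and 20.9 at P10, and 53.6, 46.9 and 42.2 at P30. It rose by 23.0 points at P30 relative to P10 (limma adjusted p = 0.00448) and by 16.0 relative to P1 (adjusted p = 0.0216). Without WT P10 library 6 the first had an adjusted p of 0.0917, and without WT P1 library 9 or WT P30 library 1 the second had 0.179 or 0.0627. The call relative to P1 was also lost with mean PSI 1 to 99 admitted (limma adjusted p = 0.0749) and with the prior by mean log2 odds (0.0717). KO lay below WT at both ages, by 8.8 points at P1 and 5.4 at P10, with adjusted p values of 1.

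The 132-nt exon averaged 41.2 ± 8.5% at P1, 36.7 ± 3.2% at P10 and 67.9 ± 2.6% at P30 in WT (SD, n = 2, 2 and 3). It rose by 31.2 points at P30 relative to P10 (limma adjusted p = 0.000814) and by 26.6 relative to P1 (adjusted p = 0.00104), and both held without any single library. The 150-nt exon rose by 25.9 points (adjusted p = 0.00321) and 23.5 points (adjusted p = 0.003) in the same comparisons, with adjusted p values of 0.0523 without WT P10 library 6 and 0.0517 without WT P1 library 9. In KO the 132-nt exon averaged 34.2% at P1, 7 points below WT, and 38.4% at P10, 1.8 points above WT. Neither difference passed. A 63-nt non-coding exon stayed at 10.7 to 18.2% in all 13 libraries and was not called.

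Map4 showed exons moving both ways. The 222-nt coding exon (mm9 chr9:109966732-109966953) had a PSI of 38.3, 46.7 and 42.6 in KO at P1 and 33.3, 29.7 and 33.2 in KO at P10. Wild type gave 42.0 and 47.5 at P1, 34.0 and 33.2 at P10, and 19.8, 18.6 and 19.5 at P30. It fell by 25.5 points at P30 relative to P1 (limma adjusted p = 1.6e-05) and by 14.3 relative to P10 (adjusted p = 0.00233, or 0.0696 with the prior set by mean log odds). At P10 it was 10.5 points lower than at P1 in KO (adjusted p = 0.0553) and 11.2 points lower in WT (adjusted p = 0.12), and neither passed. The 248-nt exon downstream of it had a PSI of 34.1, 42.7 and 41.1 in KO at P1 and 30.1, 24 and 28.1 in KO at P10. In WT it had 39.6 and 44.4 at P1, 30.6 and 31.4 at P10, and 16, 15.5 and 16.4 at P30, so the ages did not overlap in either genotype. It fell by 26.0 points at P30 relative to P1 (adjusted p = 2.41e-05), by 15 relative to P10 (adjusted p = 0.00233) and by 11.9 at P10 relative to P1 in KO (adjusted p = 0.0444). The KO call was lost without 1 of 5 of the 6 libraries, KO P1 library 13 being the exception (adjusted p 0.0533 to 0.192). In WT the same step was -11.0 points and did not pass (adjusted p = 0.179), and the difference between the genotypes in this step, -0.9 points, did not pass either (adjusted p = 1).

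The 190-nt Map4 exon rose by 11.8 points at P30 relative to P1 (adjusted p = 0.041 in limma), a call that no omission of a library left in place (0.0578 to 0.283). A 114-nt coding exon stood at 14.2 to 24.9% and was not called. A 26161-nt Map4 intron stood at 1.5 and 4.2% at P1, 6.6 and 5.3% at P10, and 21.3, 17.6 and 11.8% at P30 in WT. It rose by 14.1 points at P30 relative to P1 (limma adjusted p = 0.000643) and by 11 relative to P10 (adjusted p = 0.049). The second call was lost without WT P30 library 1 or 2 (adjusted p 0.154 or 0.111). It was also lost with mean PSI 1 to 99 admitted (0.144) and with the prior by mean log2 odds (0.142). Without WT P10 library 5 or 6 that rise was 11.6 or 10.3 points, and the call was not kept with 1 library left in that group. Taken with the expression values, Map4 without the 222-nt exon averaged 37.4 ± 0.0793 cRPKM at P1, 35.5 ± 4.81 at P10 and 65.9 ± 2.12 at P30, and Map4 with it averaged 30.5 ± 4.70, 18.0 ± 2.86 and 15.8 ± 1.03 (SD, n = 2, 2 and 3).

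Dclk1 cRPKM levels passed no test between ages, while a 74-nt coding exon gained inclusion. Its sequence is shown because its inclusion changed while the cRPKM level of the gene passed no test. The length is not a multiple of 3, so inclusion shifts the reading frame.
Dclk1 74-nt exon, GRCm38 chr3:55521850-55521923, plus strand: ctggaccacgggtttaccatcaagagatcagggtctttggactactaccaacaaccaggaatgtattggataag
It had a PSI of 10.6, 11.9 and 12.3 in KO at P1 and 23.9, 25.2 and 20.5 in KO at P10. In WT it had 14.8 and 13.8 at P1, 29.0 and 20.8 at P10, and 35.7, 34.9 and 38.5 at P30. No 2 ages overlapped in either genotype. It rose by 22.0 points at P30 relative to P1 (limma adjusted p = 0.000335) and, in KO, by 11.6 at P10 relative to P1 (adjusted p = 0.0124). The KO call had an adjusted p of 0.0666 without KO P1 library 13, 0.0611 without KO P10 library 10 and 0.0681 without KO P10 library 11. That call was also lost with mean PSI 1 to 99 admitted (0.108), with only the compared groups fitted (0.11) and with the prior by mean log2 odds (0.0997). The WT steps were not called, at 10.6 points for P10 relative to P1 (adjusted p = 0.127) and 11.5 points for P30 relative to P10 (adjusted p = 0.0906, or 0.0149 with PSI tested on its own scale). A second Dclk1 exon of 58 nt stood between 31.7 and 32.9% in all 13 libraries.

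Sam68 loss called none of 41 tested entries of these genes at P1, none of 42 at P10 and none of 41 in the difference between the ages, by limma. An unadjusted p below 0.05 was found for 4 entries at P1, 4 at P10 and 1 in the difference. Among all tested entries it was found for 1701 of 37254 at P1 and 1732 of 38888 at P10. The 4 at P10 include Map1a entries of neighbouring exons, which can share reads. Over all entries, 0.0242% were called at P1 and 0.0309% at P10, and 0% (0 of 35779) in the difference, where 931 had an unadjusted p below 0.05. The entry nearest to a call was the 8104-nt coding exon of Map1a (mm9 chr2:121125005-121133108), which holds most of the MAP1A coding sequence. Its PSI was 93.2, 91.3 and 82.4 in KO and 97.4 and 98.3 in WT at P1. At P10 it was 74.4, 77.3 and 73.1 in KO and 97.7 and 93.3 in WT, and at P30 it was 99.2, 99.5 and 98.0 in WT. Every KO library lay below every WT library. Here and for the other splicing entries, the share of all entries whose groups do not overlap was not counted, so such separation has no background to be set against.

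The Map1a difference was -20.6 points at P10 (unadjusted p = 0.000176, limma adjusted p = 0.204) and -8.9 points at P1 (unadjusted p = 0.00135, adjusted p = 0.469). The downstream 221-nt coding exon, which shares a junction with it, differed by -17.8 points at P10 and -6.7 at P1 (adjusted p = 0.573 and 0.978). With PSI tested on its own scale in place of the log odds, both exons passed at P10 (adjusted p = 0.0361 each). The difference between the effects at P10 and at P1 was -11.7 points for the 8104-nt exon (adjusted p = 1). The expression of Map1a differed by -0.19 on the log2 scale at P10 (95% interval -0.74 to 0.37). The third tested Map1a entry, a 3-nt splice-site choice at the 221-nt exon, differed by -3.4 points at P10 (adjusted p = 1). The 141-nt exon just upstream of the large exon stood at 94.1 to 98.3% in all 13 libraries.

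The 73-nt exon of Stmn1 was the next. Its PSI was 93.1, 83.6 and 82.7 in KO and 59.9 and 74.3 in WT at P1, and 93.3, 91.1 and 69.6 in KO and 73.5 and 61.4 in WT at P10. KO lay above WT without overlap at P1 and overlapped at P10. The differences of 19.4 and 17.2 points had unadjusted p values of 0.0235 and 0.0247 and adjusted p values of 1 in limma. It rests on 107 to 1217 reads per library, where the intron upstream of it had 3489 to 40302. The Dcx entry with the smallest p, a 6999-nt intron, was 6.3 points higher at P10 than at P1 in KO (adjusted p = 0.71). In Dcx, the 3-nt microexon averaged 51.9% in KO and 49.1% in WT at P1, and 53.4% in KO and 49.8% in WT at P10, and at P30 its reads were below the minimum of 10 in every library.

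Across the 13 libraries, as Pearson r on log2(cRPKM + 1), Mapt followed Map1b (0.97), Tubb3 (0.92) and Map2 (0.91), and Dcx followed Stmn1 (0.96), Tubb3 (0.88), Map2 (0.87) and Stmn2 (0.82). Tubb3 also followed Stmn1 (0.95) and Map2 (0.94). Map1a ran against Dcx and Stmn1 (-0.86 each), and Map4 against Stmn2 (-0.66). Dclk1 did not exceed 0.60 with any of the others. These values describe 13 libraries that differ in age and genotype, and only the age comparisons called any of the 10 genes. Over the 6976 genes whose mean reached 10 cRPKM, those most like a gene of the set were Frmd4a, Mex3a and Lmnb1 for Dcx (0.994, 0.991 and 0.990), Enc1, Sdc3 and Nnat for Tubb3 (0.992, 0.990 and 0.990), and Eef1b2, Ybx1 and Tubb5 for Stmn1 (0.991, 0.990 and 0.987). For Mapt they were Chd5, Shroom2 and Arnt2 (0.987, 0.982 and 0.978), and for Map1b Grlf1, Odz3 and Ctnnd2 (0.988, 0.976 and 0.976). For Map2 they were Stox2, Trp53bp1 and Ralgps2 (0.984, 0.980 and 0.979), while the nearest genes to Stmn2 (Rpl18, 0.94), Map4 (Mgrn1, 0.922) and Dclk1 (Nalcn, 0.907) were less close.

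Other genes of the microtubule system changed in both directions between P1 and P30 in WT. In this comparison 25.4% of all genes were called, and the median log2 fold change over all genes tested was -0.13. Of 16 further tubulins, 6 fell and 3 rose (median -0.44). Tuba1a, the main alpha-tubulin of young neurons, averaged 7750 cRPKM at P1, 4600 at P10 and 1040 at P30, and Tubb4a, a beta-tubulin of myelinating cells and mature neurons, averaged 175, 374 and 912. Tubb2b and Tubb5, both of the growing brain, fell, with log2 changes of -4.70 and -3.40 (SE 0.26 and 0.16, limma adjusted p = 2.72e-07 and 7.38e-08). Tubulin paralogues are similar in sequence, so reads could have been split between them. Of 24 other MAPs and stathmins, 9 fell and 5 rose (median -0.61). Among them Dpysl3 and Dpysl5, collapsin response mediators of growth cones, fell, with log2 changes of -6.15 and -4.14 (SE 0.24 and 0.20, adjusted p = 2.21e-08 and 1.22e-07), and Map6d1 rose by 3.08 (SE 0.29, adjusted p = 1.26e-05). Crmp1, another collapsin response mediator, fell by 2.45 (SE 0.16, adjusted p = 6.11e-07).

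Of 17 plus-end tracking proteins, 5 fell and 3 rose at P30 relative to P1 (median 0.01, against -0.13 over all genes tested, of which 25.4% were called). Mapre1 (EB1) averaged 53.2 cRPKM at P1, 40.7 at P10 and 12.2 at P30, whereas its neuronal relative Mapre3 (EB3) averaged 15.3, 20.4 and 45.5. Nav1, a neuron navigator, averaged 37 cRPKM at P1, 51.1 at P10 and 5.69 at P30, and Clip3 averaged 65.8, 115 and 206. Of 26 genes of tubulin folding and modification, 9 fell and 6 rose (median -0.53). Vash2, a tubulin detyrosinase, fell by 4.22 (SE 0.25, limma adjusted p = 4.44e-07). The tyrosine ligase Ttl, the glutamylase subunit Ttll1 and the deacetylase Hdac6 fell, with log2 changes of -1.49, -1.79 and -1.53. Of 20 kinases and phosphatases that act on tau and MAPs, 7 fell and 2 rose (median -0.39). Cdk5r1, the p35 activator of Cdk5, fell by 1.62 (SE 0.24, adjusted p = 0.000385), and Ppp3ca, the calcineurin catalytic subunit, rose by 1.69 (SE 0.16, adjusted p = 1.24e-05). The kinase Mark1 and the phosphatase subunit Ppp2r2b fell, with log2 changes of -1.14 and -1.81. Of 7 severing proteins 3 fell (median -0.59), among them Spast (-1.13, SE 0.20, adjusted p = 0.00109). Of 10 genes of the lissencephaly complex and nucleation 2 fell (the dynein heavy chain Dync1h1 and Tubgcp2) and 1 rose (Tubgcp6), with a median of 0.03.

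Of 12 spindle proteins, 10 were lower and none higher at P30 relative to P10, with a median log2 fold change of -2.81, beside 14.7% of all genes called in that comparison and a median of -0.13. At P30 relative to P1, 9 were lower and none higher (median -2.79), beside 25.4% of all genes, and none was called at P10 relative to P1 in WT, beside 4.05%. Tpx2, a spindle assembly factor, averaged 20.5 cRPKM at P1, 20.8 at P10 and 0.63 at P30. The mitotic kinesins Kif11 and Kif23 and the midzone protein Prc1 fell at P30 relative to P1, with log2 changes of -3.43, -3.13 and -3.42. No gene of these 8 lists was called between KO and WT at P1 or P10, or in the difference between the ages.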

How the data were processed

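Total cerebellar RNA was sequenced from modified stranded mRNA libraries, per the labels' protocols. The submitters' processing notes name FastQC, Trimmomatic and build mm9; the aligner is not given in the sources used here. The authors deposited cRPKM values (RPKM corrected for mappability) per gene and inclusion as percent (PSI) with the reads behind each value. The deposited PSI was within 1 point of the ratio of those reads in all 2804083 values with at least 10 reads.

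Genes with a group mean of at least 1 cRPKM (14063) were tested on log2(cRPKM + 1) with limma 3.58.1 in R 4.3.3, in 1 fit of 5 groups with 8 residual degrees of freedom and Benjamini-Hochberg adjustment. Splicing entries with at least 10 reads per library, at least 2 libraries in each group compared and a mean PSI of 5 to 95 were tested on log2 odds, with 0.5 reads added to each side. The prior variance followed the mean read number, a choice made after seeing the data, and the closing section gives the alternative. Of 22667 genes listed, 1114 had no value, and 30610 of 283765 splicing entries were alternative sites with no added length and were left out. The tests were tried on simulated data. Comparisons of ages and genotypes share libraries: WT P10 is in both WT steps, and KO against WT uses the groups of the age comparisons.

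The 10 genes and all gene lists were chosen with earlier results of these data known. Named were all 10 genes, Khdrbs1, up to 4 genes of each list with the smallest p at P30 relative to P1, and the 3 genes most like each of the 10 (for Map1a these are not reported here). Named splicing entries were those called in some comparison, the one with the smallest p in each gene, and cassette exons read in all 13 libraries with a mean PSI of 5 to 95.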

Additional observations from a re-analysis of the deposited data

How the results depend on the processing

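The counts of the 10 genes called for expression kept within 1.5 times the main value under most settings. At P10 relative to P1 in WT (5 called) it was 3 with only the compared groups fitted, 3 with a constant prior variance, 3 with junction reads of simple exon entries, and 1 to 3 leaving out a library (1 without P1 library 8 or P10 library 6). At P10 relative to P1 in KO (6) it was 3 with only the compared groups, 3 with junction reads, and 4 to 6 without a library. At P30 it was 7 to 8 without a library relative to P1 (8, and 4 with junction reads) and 5 to 6 relative to P10 (7). The junction-read level had no value for Map1b, Dcx and Tubb3, so 3 of the calls at P30 relative to P1, 2 at P10 relative to P1 in WT and 2 in KO could not be tested with it. Among the 7 genes it covers, the calls lost were Map1a at P30 relative to P1 and Stmn1 at P10 relative to P1 in WT (-0.59, adjusted p = 0.679) and in KO (-0.39, adjusted p = 0.723), and Map4 gained one in WT (-0.43, adjusted p = 0.0381). None was called between KO and WT under any setting. For splicing, KO P10 relative to P1 (3) gave 6 on the PSI scale, 1 with mean PSI 1 to 99, 1 with only the compared groups, 1 at 15 points, 1 with the prior by mean log2 odds (chosen after seeing the data), and 1 to 3 without a library. KO against WT at P10 (0) gave 2 on the PSI scale. P30 gave 7 to 10 without a library relative to P1 (12; 7 without P1 library 9) and 4 to 8 relative to P10 (8; 4 without P10 library 6).

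Over all genes, WT P10 relative to P1 gave 569 calls, 2312 with junction reads, 3517 with exon-exon reads of introns, 200 without P1 library 8 and 216 without P10 library 5. P30 relative to P10 gave 2074 (3864 with only the compared groups, 4611 and 6439 with the read-based levels, 1199 to 1439 without a library) and P30 relative to P1 gave 3575 (6358, 6106 and 8169; 2315 without P1 library 9). KO P10 relative to P1 gave 1430 (366, 3264 and 4736; 886 without library 10 or 11). KO against WT gave 5 at P1 (27 unfiltered, 54 without KO library 14, 42 without WT library 9) and 1 at P10 (27 without WT library 6). With the prior by mean log2 odds, splicing calls between KO and WT were 1 at P1 and 0 at P10, against 9 and 12.

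Of 2554 values of single genes or entries under an alternative, 2427 kept their side of the threshold, 105 lost and 22 gained a call, and none changed direction with a call in either setting. Among the 2427, 100 had the other sign while called in neither setting. No paired analysis was possible because the library numbers are unique and shared by no 2 groups. The few libraries limit these tests, and low junction reads limit entries of Stmn1, Map2 introns and Dcx at P30.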
